A study of Mus musculus with 45 samples.

Results

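Cluster C6 was a group of nuclei from sorted Ter119+ erythroblasts, the nucleated precursors of red cells, whose chromatin accessibility had been profiled one nucleus at a time. Members were the nuclei that the authors' table of nuclei placed in cluster C6 and in the Stag2 WT genotype. There were 2834 of them among 34073 nuclei in 6 libraries, and among 19674 nuclei in the 3 WT libraries. The authors had labelled 2639 of the members (93.1%) with the class Int, read here as intermediate, and 195 (6.88%) with the class Late.

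In the series, mice whose Stag2 gene was intact (WT) were set against mice in which it had been deleted (KO), and all of them had received pIpC, the compound given to induce the deletion, so the WT animals had been dosed too. Samples were taken 6 to 8 weeks after the last dose. The protein made from Stag2 belongs to cohesin, a ring-shaped complex that holds loops of DNA together. The libraries described here are the 3 WT libraries of the ATAC side of a 10x multiome experiment, which reads open chromatin and RNA from one nucleus, and the 3 KO libraries are used for the share of nuclei and, near the end, for a few values of their C6 nuclei with no test. The Cre driver, strain, sex and age of the animals are not given in the sources used here. Whether 1 library is 1 animal or a pool is not given either, so the spread over libraries may be in part technical.

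As background, an erythroblast matures through a few last divisions in which it fills with haemoglobin, condenses its nucleus and finally expels it. Gata1 and Klf1 are the transcription factors that drive the erythroid programme, and Tfrc, the transferrin receptor, imports the iron that haem needs. Progenitor genes such as Kit, Gata2 and Myc close as this maturation goes on, and genes for nuclear export and protein turnover open.

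Accessibility was read as the gene score, a signal that sums ATAC fragments around a gene. For each library and cluster the mean over nuclei was taken and scaled to a sum of 1000000 over genes, and all levels below are on that scale. C6 was set against 4 other clusters of the same 3 WT libraries, C11, C9 and C5, which the label of the cluster places beside it among Int nuclei, and C3, a cluster of Late nuclei. The authors made all 5 clusters from the accessibility of these same nuclei, so differences between them are given as descriptions with no test. Differences are on the log2(score + 1) scale, C6 minus the other cluster within a library, with the mean and SD over the 3 libraries. A gene was counted as higher or lower in C6 where the mean difference was past 1.5-fold and all 3 libraries had one sign, among genes with a mean score of at least 5.

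C6 held 589 of 6865 nuclei in WT replicate 1, 636 of 5819 in replicate 2 and 1609 of 6990 in replicate 3. These are shares of 8.58% (Wilson 95% interval 7.94% to 9.27%), 10.9% (10.2% to 11.8%) and 23.0% (22.0% to 24.0%), and the intervals cover counting error only. The mean was 14.2% ± 7.75 (SD, n = 3). Replicate 3 stood apart from the others and supplied 56.8% of all members. In the KO libraries C6 held 13 of 4857, 10 of 4617 and 15 of 4925 nuclei, shares of 0.268%, 0.217% and 0.305%. The WT and KO shares did not overlap, and 98.7% of the 2872 nuclei of the cluster were WT. The cluster was proposed for this make-up, so it is no finding, and no KO library held enough C6 nuclei for a comparison of genotypes within the cluster. The share of Late nuclei within C6 ran the other way over the WT libraries, at 16.5% (97 nuclei) in replicate 1, 9.75% (62) in replicate 2 and 2.24% (36) in replicate 3.

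**Figure D1:**
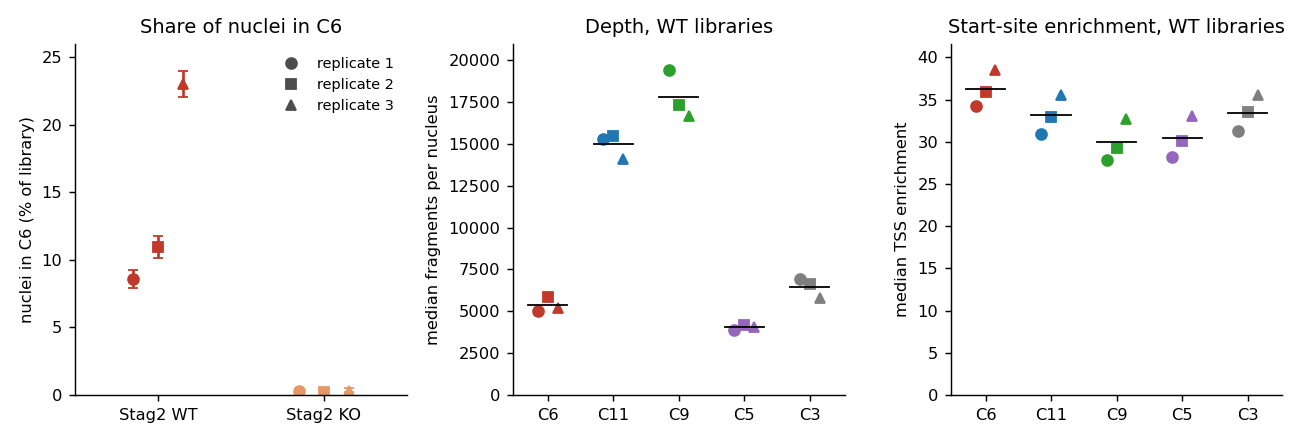
The left panel plots the percentage of each library's nuclei that lie in C6, with Wilson 95% intervals, and the middle and right panels plot the median fragments per nucleus and the median transcription start site (TSS) enrichment of the 5 clusters in the WT libraries. Symbols are replicates and black lines are means. The 3 WT libraries sit between 8.58% and 23.0% and the KO libraries at most at 0.305%; C6 lies far below C11 and C9 in fragments and has the highest enrichment of the 5 clusters in each library.

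The median C6 nucleus had 5027, 5872 and 5189 fragments in WT replicates 1, 2 and 3 (mean 5363 ± 448). C11 had 14982 ± 747 and C9 17809 ± 1442, so the C6 nuclei were shallow beside these 2 clusters in every library. C3, with 6452 ± 613, was nearer, though C6 was below it in every library, where C3 had 6960, 6626 and 5771. C5 was shallower than C6, at 4044 ± 128. The name of the cluster as shallow therefore held against C11 and C9, by less against C3, and not against C5. Depth and maturation cannot be told apart in the comparisons with C11 and C9.

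The signal of these shallow nuclei was concentrated at genes. TSS enrichment, the pile-up of fragments at the start sites of genes, was 34.2, 35.9 and 38.5 in C6. It was the highest of the 5 clusters in all 3 libraries, with means of 36.2 ± 2.17 in C6, 33.5 ± 2.16 in C3, 33.2 ± 2.32 in C11, 30.5 ± 2.41 in C5 and 29.9 ± 2.45 in C9. Of fragment ends, the part that fell in peaks came to 62.9% ± 1.94 in C6, nearest to the 65.0% ± 1.23 of C3, and between 56.1% and 57.5% in C9, C11 and C5. The share in promoters was 51.3% in C6, 51.7% in C3 and 42.7% to 45.6% in the other 3. Nuclei with a doublet score above 0 made up 4.92%, 10.5% and 3.54% of C6 in replicates 1, 2 and 3, against means of 0.361% in C5, 10.9% in C3, 18.2% in C11 and 19.99% in C9. The barcode string of 4 members also occurred among members from another WT library, and that of 102 members occurred in some other library.

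The 3 erythroid markers were open in C6 at the level of the other erythroblast clusters. Klf1 (chromosome 8, 84901928 to 84905295, plus strand, with all positions given on mm10) had scores of 293, 249.5 and 249.5 in C6 in replicates 1, 2 and 3. In C11 it had 255, 249 and 262, in C9 217, 217 and 230.4, in C5 266, 298 and 325, and in C3 231, 222 and 211. C6 was above C9 and C3 in every library, by 0.25 ± 0.17 and 0.25 ± 0.09, and overlapped with C11 and C5.

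Gata1 (X, 7959260 to 7976574, minus strand) had 79.4, 94.6 and 83.1 in C6. The values of C11, C9 and C5 overlapped with these, and C3 lay below them at 74.4, 74.6 and 70.8. Tfrc (chromosome 16, 32608896 to 32632794, plus strand) had 164, 162 and 186 in C6, and the largest of its mean differences from the 4 clusters was -0.10 ± 0.12, from C5. None of the 3 markers was counted as different in any comparison. Stag2 itself (X, 42149412 to 42277186, plus strand) had 53.7, 59.8 and 62.1, lower than in C3, with 67.9, 69.9 and 70.6, by a difference of -0.25 ± 0.08 that was not counted, and within 0.13 of the Int clusters.

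The promoters of Klf1 and Tfrc are shown because they carry the letters that erythroid factors are known to read. They are the 250 bases before the start site in RefSeq on GRCm38.p6, at chr8:84901732-84901981 on the plus strand and chr16:32608646-32608895 on the plus strand. The RefSeq start of Klf1 lies 54 bases from the start in the authors' table. Capitals mark matches on either strand to 5 motifs. AGATAA is a motif that GATA factors read. A second form of it is TGATAA. CCNCNCCC is a motif that Klf1 and its relatives read. CCAAT and the TATA box motif TATAAA are general promoter motifs. Neighbouring matches may overlap.
Klf1: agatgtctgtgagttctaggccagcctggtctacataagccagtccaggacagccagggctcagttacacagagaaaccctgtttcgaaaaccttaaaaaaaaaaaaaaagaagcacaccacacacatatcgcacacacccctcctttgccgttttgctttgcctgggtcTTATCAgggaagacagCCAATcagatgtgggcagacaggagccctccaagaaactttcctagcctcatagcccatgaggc
Tfrc: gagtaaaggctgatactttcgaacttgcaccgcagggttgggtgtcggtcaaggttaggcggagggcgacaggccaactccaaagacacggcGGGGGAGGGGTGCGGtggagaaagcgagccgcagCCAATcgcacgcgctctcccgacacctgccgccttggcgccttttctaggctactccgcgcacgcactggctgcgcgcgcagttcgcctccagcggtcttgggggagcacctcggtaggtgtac
Klf1 held 1 TGATAA and 1 CCAAT, and Tfrc held 3 overlapping CCNCNCCC and 1 CCAAT. Of 18209 promoters of the same length, 14.5% held either GATA motif, 53.0% CCNCNCCC, 36.3% CCAAT and 11.98% TATAAA. These are matches of letters and do not show binding.

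Markers of the other cell types that a Ter119 sort could hold were summed as scores, and no marker was at 0 in all 3 libraries of C6. The 16 myeloid markers summed to 431 to 447 over the C6 libraries, 432 to 446 in C11, 465 to 488 in C9, 411 to 527 in C5 and 529 to 536 in C3. The 15 lymphoid markers found in the table summed to 152 to 159 in C6, 138 to 158 in C3 and 169.5 to 219.9 in the other 3 clusters. On the myeloid list C6 overlapped with C11 and C5 and lay below C9 and C3, and on the lymphoid list it lay below the 3 Int clusters.

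The 8 mast and basophil markers summed to 46.6 to 50.1 in C6, 47.3 to 69.3 in C11, 56.4 to 84.1 in C5, 66.7 to 92.3 in C9 and 39.9 to 43.4 in C3. Sums of the 12 megakaryocyte markers were 293 to 351 in C6, 341 to 371 in C11, 372 to 438 in C5, 366 to 404.5 in C9 and 276 to 321 in C3. Sums of the 12 stromal and endothelial markers were 113 to 139 in C6, 135 to 159 in C11, 134 to 174 in C5, 122 to 158 in C9 and 102 to 108 in C3. On these 3 lists C6 was above C3 in each library. The part of other cells in the differences below was not tested.

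C11 was the cluster most like C6. Of 18712 genes compared, none (0.0%) was counted as higher in C6 and 878 (4.69%) were counted as lower. Without WT replicate 3 these counts were 18 and 1783. The differences between C6 and C11 had an SD over genes of 0.21, 0.21 and 0.16 in the 3 libraries, for genes with a mean score of at least 20. That is about the size of the differences between 2 libraries within C6, whose SD was 0.18 to 0.21, and above that within C11, at 0.12 to 0.13. The differences of one library correlated with those of another over genes with r of 0.38 to 0.41, and these genes are not independent replicates.

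The genes counted as lower than in C11 were genes of low score. Over quartiles of mean score the median difference went from -0.34 in the lowest to 0.06 in the highest, and the 878 genes split into 619, 251, 8 and 0 from the lowest quartile to the highest. Among the genes named by rule, the lowest against C11 were Zbtb7c and Prkcb, which encode a zinc finger protein and a protein kinase C, together with Fam155a, Paqr6 and Fstl4. All but Paqr6 (4.0 kb) are long, at 328.4 kb for Zbtb7c to 565.0 kb for Fam155a. In the longest quartile of genes the median difference was -0.21 with 229 lower, and in the shortest -0.14 with 335 lower. The part of length was not tested. With fragments matched the difference of Fam155a had the other sign, at 0.20. Prkcb had 13.3, 18.1 and 16.1 in C6 against 29.3, 26.5 and 21.6 in C11 (-0.67 ± 0.36). Fstl4 had 20.9, 22.3 and 16.9 against 33.1, 36.6 and 26.8 (-0.65 ± 0.03). C6 lay below C11 in every library for both genes. After quantile normalization or median centring, none of these 5 genes was past 1.5-fold. Of the 20 terminal maturation genes and 45 replication-dependent histone genes compared, none was counted in either direction against C11. With a background of 4.69%, and 8 and 0 genes counted in the third and highest quartiles of score, this does not set either list apart. With C11 reweighted to the fragments of C6 nuclei, 827 genes were counted as higher and 1214 as lower, but the weights then rested on an effective 58.1 to 66.8 C11 nuclei per library. With quantile normalization the counts were 41 and 50, and with median centring 25 and 193, so the one-sided count depended on the scaling.

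**Figure D2:**
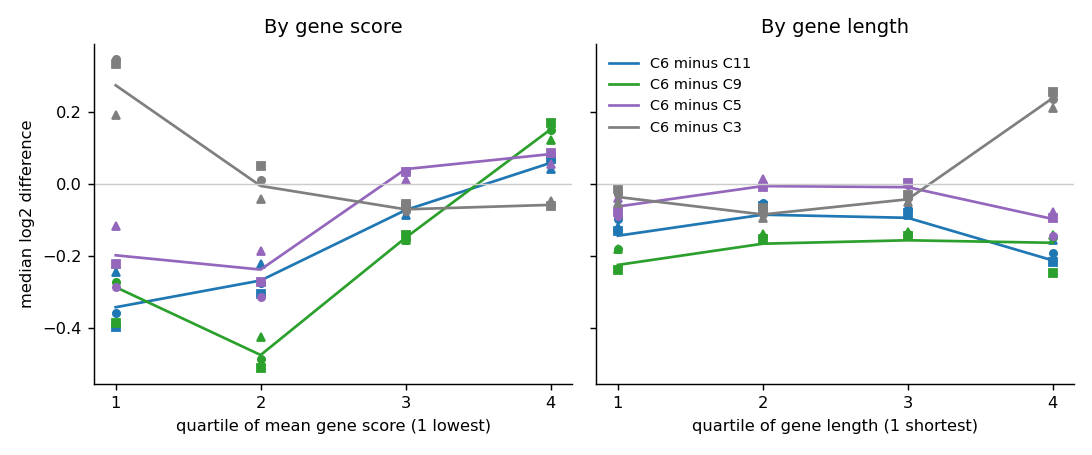
Each line joins the median log2 difference, C6 minus another cluster, over quartiles of mean gene score (left) or of gene length (right), with symbols for the 3 WT libraries. Against C11 the median goes from -0.34 in the lowest quartile of score to 0.06 in the highest, and against C3 it is 0.28 in the lowest quartile of score and 0.24 in the longest genes.

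Against C9, the deepest cluster, several progenitor and signalling genes were lower in C6. Of 18389 genes compared, 44 (0.239%) were counted as higher in C6 and 3483 (18.9%) as lower, and the differences of 2 libraries correlated over genes with r of 0.67 to 0.70. The split depended on the scaling: 1.25% of the counted genes were higher in C6 as scaled here, 26.7% after quantile normalization and 84.3% after median centring, which moved the median of all genes from -0.17 to 0.26. With fragments matched 990 genes were higher and 2524 lower, but the weights then rested on an effective 37.8 to 126 C9 nuclei per library. Without WT replicate 3 the counts were 129 and 3977. For Myc, H2afy3, Gata2, Bcl11a, Lfng, Siglec15, Map2k6, Stat5a, Sh2b3 and Snx11 the difference from C9 kept its sign in each of the 13 settings run, the one used here included.

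Myc (chromosome 15, 61985341 to 61990361, plus strand), the growth factor response gene that is shut off as erythroblasts mature, had 36.3, 32.9 and 19.6 in C6. It had 92.1, 104 and 83.8 in C9, 67.3, 87.2 and 59.9 in C5, 34.6, 35.5 and 30.4 in C11 and 19.2, 17.4 and 16.6 in C3. C6 lay below C9 and C5 in all 3 libraries (-1.66 ± 0.36 and -1.27 ± 0.36), overlapped with C11 and lay above C3 (0.67 ± 0.38, and 0.47 to 0.88 over the settings, so not past 1.5-fold in each). Replicate 3 had the lowest C6 level. H2afy3, on the same chromosome at 62217541 to 62219451, had the same order, with 17.7, 12.6 and 9.48 in C6 against 62.4, 59.1 and 43.7 in C9.

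Gata2, the GATA factor that Gata1 replaces, had 11.1, 14.0 and 14.3 in C6 against 38.1, 38.7 and 29.7 in C9 (-1.37 ± 0.34). Bcl11a, a repressor of embryonic globin genes, had 60.4, 64.4 and 58.7 against 136, 143 and 134, and its difference of -1.16 ± 0.02 was nearly the same in each library. The levels of both genes in C6 did not overlap with those in C9. Of 16 early erythroid and progenitor genes compared with C9, none was counted as higher and 6 as lower (background 18.9%), and the median of the list was -0.36 beside -0.17 for all genes. The other 4 that were lower were Cdk6, Cd44, Sox4 and Hoxa9. After quantile normalization 4 of the 16 were lower, with a median of -0.03 beside 0.02 for all genes. Of all 18389 genes, 1072 were lower and 391 higher under that scaling. After median centring 3 of the 16 were lower and 1 was higher, with a median of 0.08 beside 0.26 for all genes. Of all genes, 665 were then lower and 3575 higher. The sign of the list median thus depended on the scaling, and the list median lay below that of all genes under each of these scalings. Of 8 mast and basophil markers, 5 passed the score filter against C9, and 3 of these were lower (Ms4a2, Cma1 and Il1rl1). The list median was -0.94, or -0.70 after quantile normalization and -0.50 after median centring. The filter takes the mean of the 2 clusters, and 3 markers passed it against C11 and against C3. Ms4a2 and Cma1 passed it against C9 alone, through their C9 scores, so their lower values in C6 carry no weight. Prss34 and Tpsb2 crossed 0 over the settings, at -0.45 to 0.16 and -0.27 to 0.99. The part of mast and basophil markers in the early genes was not tested.

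Lfng (chromosome 5, 140607341 to 140615545, plus strand), a glycosyltransferase that modifies Notch receptors, had 25.8, 28.1 and 21.2 in C6. It had 78.7, 80.3 and 69.6 in C9 and 78.1, 71.8 and 51.1 in C5, differences of -1.57 ± 0.09 and -1.37 ± 0.17. C11, with 28.6, 29.2 and 26.04, and C3, with 27.1, 30.5 and 28.3, lay close to C6, so the 5 clusters fell into 2 levels for this gene.

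Siglec15, a lectin that binds sialic acids, showed the same 2 levels with 12.02, 9.85 and 10.4 in C6 and 38.7, 41.8 and 25.9 in C5. Map2k6, a kinase of the p38 pathway, had 27.7, 25.4 and 21.3 in C6 and 81.6, 71.9 and 70.8 in C9. Adgrf1, an adhesion receptor, had 12.3, 10.8 and 10.9 in C6 and 34.0, 30.9 and 29.2 in C5, a difference of -1.39 ± 0.05. In each of these genes all 3 C6 libraries lay below all 3 libraries of the cluster it is set against. Aqp8, Tac2 and Mcpt1, a water channel, a tachykinin and a mast cell protease, were the other low genes by rule, at -1.97 ± 0.61, -1.90 ± 0.48 and -1.82 ± 0.31 against C9.

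Stat5a, which carries the erythropoietin signal to the nucleus, had 13.1, 14.4 and 12.7 in C6 against 34.4, 35.6 and 30.6 in C9 (-1.26 ± 0.07). Sh2b3, an adaptor that dampens that signal, had 49.6, 49.4 and 50.9 against 91.0, 102 and 90.3 (-0.90 ± 0.11, and -0.46 after median centring, which is not past 1.5-fold). Neither gene's C6 levels overlapped with C9. Of 11 erythropoietin and STAT5 genes compared with C9, 4 were lower (Stat5a, Stat5b, Socs1 and Sh2b3; background 18.9%) and none higher, with a list median of -0.34 beside -0.17 for all genes. After quantile normalization 2 of the 11 were lower, with a median of -0.045 beside 0.02 for all genes, of which 1072 of 18389 were lower. After median centring 1 was lower and 5 were higher, with a median of 0.10 beside 0.26 for all genes. Of all genes, 665 were then lower and 3575 higher. The sign of the list median thus depended on the scaling, and the list median lay below that of all genes under each of these scalings. Stat5a and Stat5b lie side by side on chromosome 11 and may share fragments, which was not tested.

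By rule the 5 genes highest in C6 against C9 were Snx11, Dohh, Pip4p1, Fam76a and Fzr1, with differences of 0.65 to 0.68. All 5 depended on the scaling: none was past 1.5-fold after quantile normalization, where Fzr1 had 0.34 and Snx11 0.55, and the highest value over the settings was 1.11, for Snx11. Snx11, a sorting nexin, had 155, 168 and 167 in C6, 97.4, 97.4 and 110.5 in C9 and 152, 161 and 166 in C3. Dohh, the enzyme that completes hypusine, and Fzr1, an activator of the anaphase-promoting complex, are neighbours on chromosome 10. Their levels in C6 lay nearer to C3 than to C9.

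Against C5, of 18461 genes compared, 393 (2.13%) were counted as higher in C6 and 1762 (9.54%) as lower. The differences correlated between libraries with r of only 0.16 to 0.23, and C5 held 143, 224 and 261 nuclei. Without WT replicate 3 the 2 counts were 837 and 2825. Here too the split depended on the scaling, with 18.2% of the counted genes higher as scaled, 48.3% after quantile normalization and 58.8% after median centring, which moved the median of all genes from -0.04 to 0.13. C5 values were the least even between libraries, with an SD of 0.37 to 0.43 over genes against 0.18 to 0.21 in C6.

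Tmem14c, which carries a haem precursor into mitochondria, was the haem gene that set C6 apart from C5. It had 123, 116 and 127 in C6 against 204, 216 and 218 in C5 (-0.80 ± 0.08) and 189.6, 190.6 and 181 in C9 (-0.61 ± 0.10). The difference from C9 was -0.18 after median centring and so not past 1.5-fold, and that from C5 was -0.86 to -0.62 over the settings. C11, at 136, 127 and 135, was near C6. Pqlc3 was by rule the gene highest in C6 against C5, with 48.7, 47.5 and 55.4 against 23.2, 15.4 and 18.8 (1.37 ± 0.29). The next highest, Dnajc28 and Atp5k, had SDs of 0.98 and 1.24 and were largest in replicate 1, where C5 held the fewest nuclei: Atp5k had 8.80, 58.8 and 32.4 in C5 and 51.0, 59.2 and 52.5 in C6.

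Against C3, the Late cluster, 8 of 20 terminal maturation genes were counted as lower in C6. Of 16151 genes compared, 2167 (13.4%) were counted as higher in C6 and 771 (4.77%) as lower, and the differences of 2 libraries correlated with r of 0.82 to 0.85. Higher genes made up 73.8% of those counted as scaled here and 51.7% after quantile normalization. Of the 20 terminal maturation genes none was higher and 8 were lower, and the list median was -0.51 beside -0.01 for all genes. The 8 were Xpo7, Ube2h, Ube2o, Bpgm, Bnip3l, Tent5c, Ucp2 and Riok3. After quantile normalization 5 of the list were lower, beside 1416 of all 16151 genes. After median centring 7 were lower, beside 730 of all 16151.

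Xpo7 (chromosome 14, 70654246 to 70766628, minus strand), a nuclear exporter used in the last steps of erythroid maturation, was by rule the gene farthest below C3. It had 93.1, 81.4 and 68.5 in C6 and 294, 328 and 338 in C3, a difference of -1.98 ± 0.32. Its levels were 65.1, 63.2 and 69.8 in C11, 62.4, 54.4 and 59.9 in C9 and 49.0, 53.6 and 54.1 in C5. C6 was above C5 in every library (0.61 ± 0.29, counted; 0.46 to 0.79 over the settings, and 0.56 after quantile normalization, so not past 1.5-fold in each) and above C9 in every library (0.44 ± 0.22, not counted). The libraries of C6 overlapped with those of C11.

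Ube2h, a ubiquitin-conjugating enzyme, had 144, 124 and 119.8 in C6 and 287, 273 and 289 in C3 (-1.13 ± 0.14). Bpgm, which makes the metabolite that lets haemoglobin release oxygen, had 160.3, 149 and 151 against 269, 251 and 268 (-0.77 ± 0.05). Bnip3l, the receptor that marks mitochondria for removal, had 137, 121 and 111 against 198, 186 and 185 (-0.63 ± 0.11; -0.57 after quantile normalization, just short of 1.5-fold). No C6 library reached the lowest C3 library in any of the 3 genes. Ube2h and Bpgm fell outside the naming rule and were picked after their values were seen.

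Of the 7 globin genes in the table, 2 were lower than in C3, Hba-a2 and the embryonic Hba-x (background 4.77%), and none was higher. Hba-a2 (chromosome 11, 32296492 to 32297310, plus strand) had 189, 168 and 198 in C6 and 315, 278 and 325 in C3 (-0.73 ± 0.01). Its levels in C11 were 169, 146 and 182 and in C9 140.3, 104 and 155, so C6 lay above C11 and C9 within each library. The Int nuclei of C6 alone had 166, 166 and 195, which is below C11 in replicate 1. Against C5 the difference was 0.13 to 0.37 over the settings. With fragments matched, the mean difference from C11 had the other sign, at -0.18 in place of 0.16. Reads of the paired alpha globin genes may be shared between the copies. Bcl2l1, a survival gene of erythroblasts, and Epb41, of the membrane skeleton, were also lower than in C3, at -0.79 ± 0.04 and -0.76 ± 0.07, both named after their values were seen.

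Some of the early genes were higher in C6 than in C3. Of 15 early erythroid and progenitor genes compared, 8 were higher (background 13.4%) and none lower, with a list median of 0.67. They were Kit, Myc, Meis1, Erg, Fli1, Hmga2, Mycn and Sox4. Kit, the stem cell factor receptor, had 12.4, 12.1 and 13.5 in C6 and 4.94, 5.33 and 4.75 in C3 (1.19 ± 0.14). Gfi1b, a repressor needed for erythroid growth, had 128, 141 and 130.1 against 92.6, 81.1 and 74.2 (0.69 ± 0.19). Aqp1, the water channel of the red cell membrane, had 236, 252 and 267 against 164, 135 and 131 (0.81 ± 0.26). In all 3 the lowest C6 library was above the highest C3 library. After quantile normalization 7 of the 15 early genes were higher, beside 1515 of all 16151 genes. Of 71 olfactory receptor genes, which erythroblasts are not known to use, 22 were higher and 1 lower than in C3, with a median of 0.30. After quantile normalization 10 were higher and 3 lower, with a median of -0.00. In the lowest quartile of mean score 1300 of 4038 genes were higher, and the part of low score in the early genes was not tested. The summed scores of the mast, megakaryocyte and stromal markers were also above C3 in each library, as given above, and their part in this difference was not tested.

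By rule the genes highest in C6 against C3 were very long ones of low score. Opcml, Cdh13, Csmd1 and Sdk1, cell adhesion or surface genes, and Fhit had differences of 1.95 to 2.18. Opcml, which spans 1133.8 kb on chromosome 9, had 58.6, 32.4 and 39.8 in C6 against 8.20, 9.08 and 8.38 in C3. Levels in C11, at 54.4, 48.2 and 48.2, overlapped with those in C6. In the longest quartile of genes, with a median length of 106 kb, 1230 genes were higher and 76 lower than in C3, so length went with the difference; its part in single genes was not tested.

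Khnyn, Zfp874a, Tmem200b and Cbln3 were, with Xpo7, the genes lowest by rule against C3. Tmem200b had 35.8, 42.7 and 48.5 in C6 against 129.8, 148 and 131 in C3 (-1.67 ± 0.23). Khnyn and Cbln3 start within 1 kb of each other on chromosome 14 and may share fragments, which was not tested. For each of these genes C11 was near C6.

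**Figure D3:**
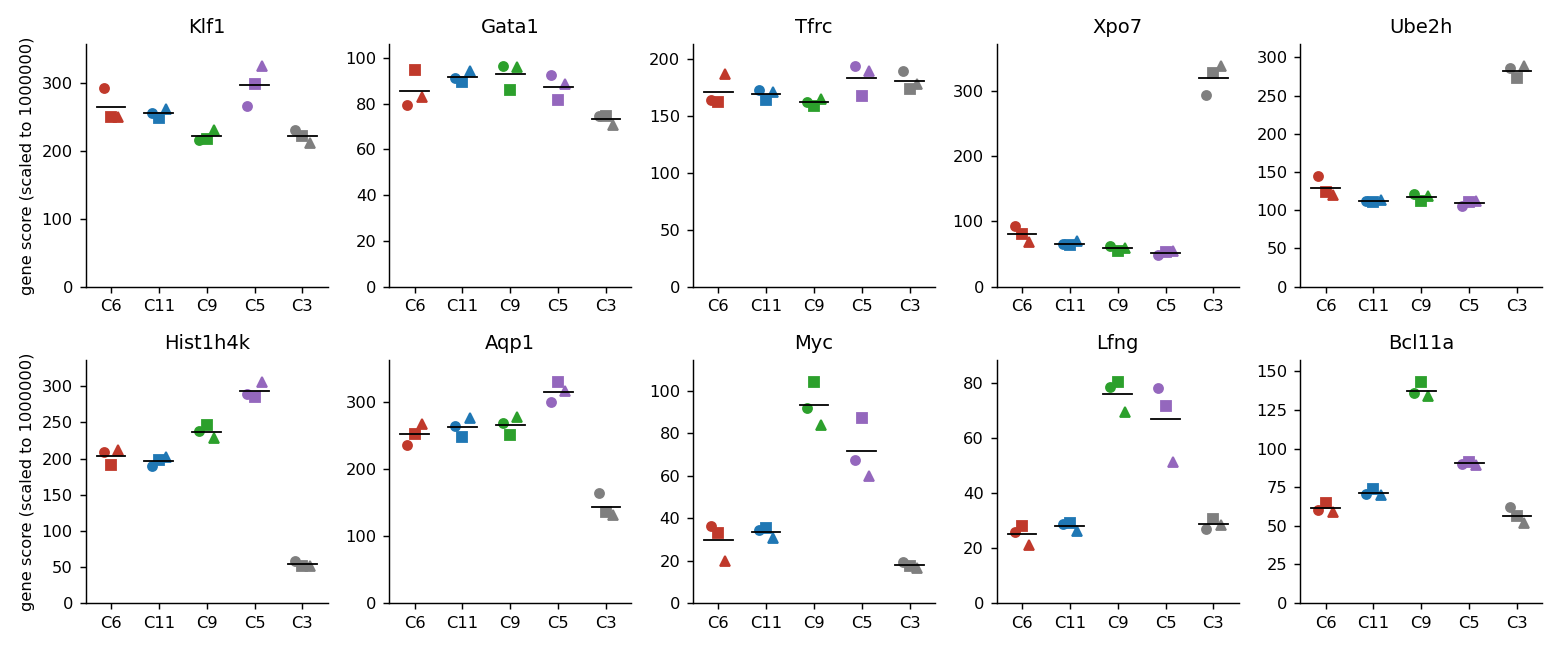
Gene scores (scaled to 1000000) of 10 genes in the 5 clusters, with circles, squares and triangles for WT replicates 1, 2 and 3 and a line at the mean; each axis starts at 0. Klf1, Gata1 and Tfrc are near level, Xpo7 and Ube2h are highest in C3, and Hist1h4k and Aqp1 are low in C3. Myc and Lfng are high in C9 and C5 with C6 near C11, and Bcl11a is highest in C9.

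Replication-dependent histone genes package newly copied DNA and lie in dense clusters, and a part of them was counted as higher in C6 than in C3. This list was added after the data were seen. Of 61 such genes in the data, 13 were at 0 in every library of the 5 clusters and 44 could be compared with C3. Of the 44, 24 were higher in C6 (background 13.4%) and none lower, with a list median of 0.65. The mean difference was above 0 for 43 of them. Of the 24, 23 lie on chromosome 13 and 1 on chromosome 11. The number higher was 23 after quantile normalization, 27 after median centring and 23 with fragments matched. Of all genes, 1515 of 16151, 2236 of 16151 and 2266 of 16087 were higher in that order. Genes that lie this close may share fragments, which was not tested, so they are not counted as independent observations.

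Hist1h4k, which encodes a histone H4 (named in RefSeq H4c12), had 209.5, 191 and 212 in C6 and 58.5, 51.6 and 51.3 in C3 (1.90 ± 0.11). It had 189, 198 and 202 in C11, 238, 246 and 228 in C9 and 289, 285 and 306 in C5. C6 was thus far above C3, level with C11 and below C9 and C5. Hist1h2bn (H2bc15), an H2B gene a few kb away, had 224, 203 and 223 in C6 and 71.4, 62.0 and 61.0 in C3 (1.73 ± 0.11). Of 45 histone genes compared with C5, 5 were lower in C6 and none higher, a share near the background of 9.54%. The list median was -0.35 beside -0.04 for all genes. After quantile normalization 2 were lower, beside 906 of all 18461 genes, and after median centring 1 was lower, beside 874. Of 30 cell cycle and replication genes compared with C3, 3 (Cdk1, Rrm1 and Tyms) were higher, a share below the background of 13.4%, and none was lower.

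The promoters of the 2 histone genes farthest above C3 are shown because their differences from C3 were the largest of the list. They are the 250 bases before the RefSeq start site on GRCm38.p6, at chr13:21750554-21750803 on the minus strand and chr13:21753826-21754075 on the plus strand, with the same motifs in capitals. The RefSeq start of Hist1h2bn lies 47 bases from the start in the authors' table.
Hist1h4k: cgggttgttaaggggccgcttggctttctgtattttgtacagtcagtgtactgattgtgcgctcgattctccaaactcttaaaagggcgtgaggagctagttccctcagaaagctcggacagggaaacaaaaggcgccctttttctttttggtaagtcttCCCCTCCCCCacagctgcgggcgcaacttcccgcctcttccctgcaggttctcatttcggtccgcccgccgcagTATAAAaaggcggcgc
Hist1h2bn: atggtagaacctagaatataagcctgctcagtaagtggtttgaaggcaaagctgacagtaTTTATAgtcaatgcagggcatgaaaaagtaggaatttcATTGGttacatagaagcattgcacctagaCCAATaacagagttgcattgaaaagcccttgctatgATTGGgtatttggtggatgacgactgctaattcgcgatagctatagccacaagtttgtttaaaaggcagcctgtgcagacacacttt
Hist1h4k held 2 overlapping CCNCNCCC and 1 TATAAA, 16 to 11 bases before the start. Hist1h2bn held 3 CCAAT and 1 TATAAA, the latter 190 to 185 bases before the start. Of 54 histone genes of the list with a promoter in the table, 83.3% held CCAAT and 51.9% TATAAA, against 36.3% and 11.98% of all 18209 promoters. CCNCNCCC was rarer in the list, in 31.5% of the 54 against 53.0% of all promoters. Of the 23 that were higher in C6 than in C3 and had a promoter there, 78.3% held CCAAT, 52.2% TATAAA and 30.4% CCNCNCCC. The shares in the whole list and in its members that were higher were thus close.

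As scaled here, each of the 5 gene groups given next had a smaller share of counted members than all genes, whose share in both directions together was 4.69% against C11, 19.2% against C9, 11.7% against C5 and 18.2% against C3. Of 19 red cell membrane genes, none was counted against C11, C9 or C5, and 1 was higher and 1 lower than in C3. Of 13 haem synthesis genes compared, Tmem14c, lower than in C5 and C9, and Alas1, lower than in C9, were the ones counted in any comparison. Of 13 iron genes, Hfe was lower than in C9 and no other was counted. Neither Alas1 nor Hfe was past 1.5-fold against C9 after quantile normalization, at -0.12 and -0.15. Of 15 cohesin and CTCF genes, Stag1, the paralogue of Stag2, was higher than in C3, with 131, 133.5 and 141 against 72.7, 72.6 and 65.3 (0.93 ± 0.14; named after its values were seen), and Esco1 was higher than in C5 as scaled here. The Esco1 difference was 0.61 and ran from 0.43 to 0.78 over the settings, so it was not past 1.5-fold in each of them. Of 90 ribosomal protein genes, none was counted against C11, 2 were lower than in C5 and 7 lower than in C9, and against C3 the median of 91 was -0.21 with 4 higher and 4 lower. The counts against C9 depended on the scaling: after median centring 10 of 19 membrane, 5 of 13 haem, 3 of 13 iron, 7 of 15 cohesin and CTCF and 19 of 90 ribosomal protein genes were higher, where as scaled here none was. Of all 18389 genes, 3575 were higher and 665 lower after median centring. After quantile normalization no member of the 5 groups was higher, and 1 haem gene and 3 ribosomal protein genes were lower. Of all genes, 391 were then higher and 1072 lower.

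**Figure D4:**
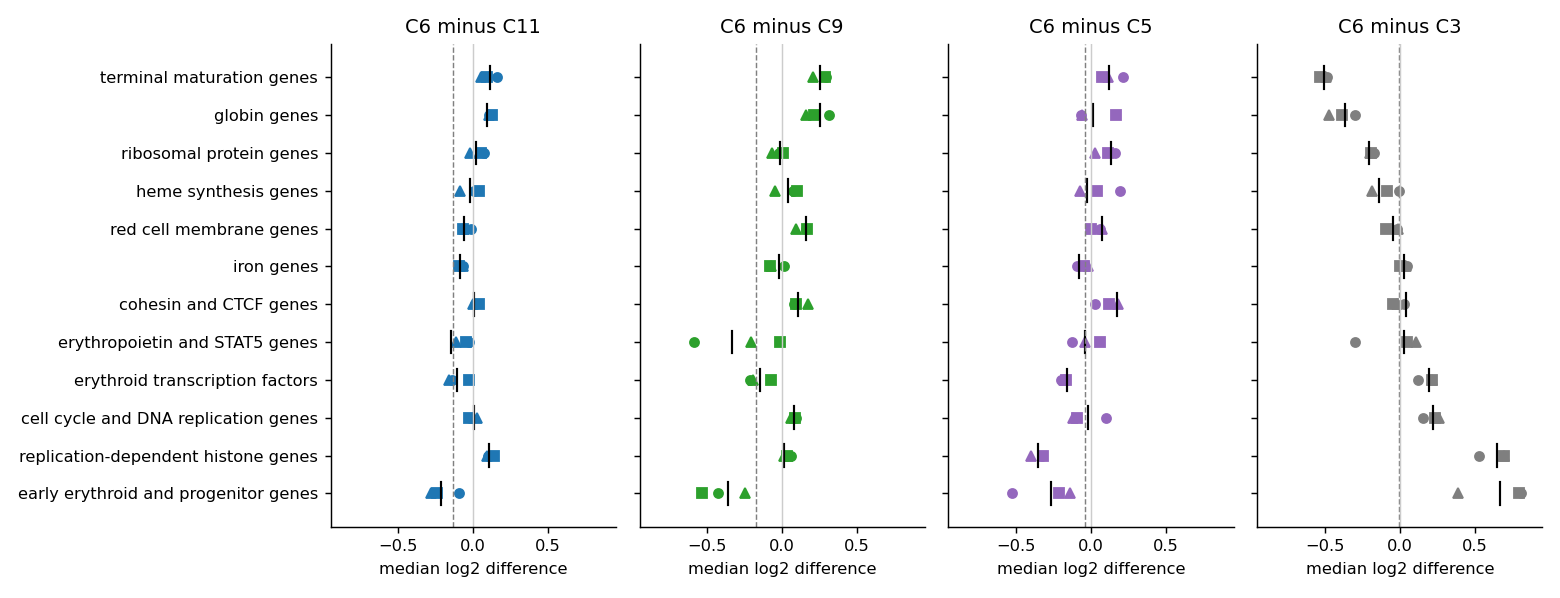
Median log2 difference of 12 gene lists, C6 minus each of the 4 clusters, with a symbol for each WT library, a black bar for the median of the mean differences and a dashed line for the median of all genes. Against C3 the terminal maturation genes sit at -0.51 and the histone and progenitor genes at 0.65 and 0.67; against C11 the list medians run from -0.22 to 0.11.

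C6 was set against all 4 clusters at once. Of 18161 genes compared, C6 was the highest of the 5 in all 3 libraries for 316 (1.74%), and for none of these was the gap to the next cluster past 1.5-fold. It was the lowest for 622 (3.42%), with a gap past 1.5-fold for 31. By the same count C3 was the highest for 2636 genes, C9 for 2489, C11 for 793 and C5 for 598, and the lowest for 5014, 915, 150 and 1198 in that order. C6 was thus the highest for the fewest genes of the 5 clusters, and only C11 was the lowest for fewer. Among genes with a mean score of at least 20 and without predicted names, Usp28, a deubiquitinase, lay farthest above the rest. It had 83.9, 95.8 and 86.0 in C6, 67.2, 72.4 and 74.1 in C11 and 71.7, 67.0 and 71.1 in C9. With it were Angptl6, Ahsa2, and Gfer and Noxo1, which are neighbours on chromosome 17. Over the settings the difference of Usp28 from C9 fell to -0.002 and those of Gfer and Noxo1 from C11 to -0.03. Angptl6 and Ahsa2 stayed above each of the 4 clusters.

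Among genes with a mean score of at least 20 and without predicted names, Marcksl1, an actin regulator, lay farthest below, with 15.3, 14.3 and 15.6 in C6. It had 26, 22.8 and 21.1 in C11, 48.2, 37.9 and 35.8 in C9, 25.7, 21.6 and 38.5 in C5 and 33.4, 32.9 and 30.8 in C3, and was counted as lower in all 4 comparisons as scaled here. Against C11 its difference of -0.60 was -0.38 after quantile normalization and -0.42 after median centring, neither past 1.5-fold. Coro1a, an actin-binding protein of blood cells, had 13.5, 15.3 and 17.4 in C6 and 23.8, 22.9 and 22.1 in C11. Gpd2, Fkbp9 and Rem2 were the other 3 by rule. All are genes of low score, and low scores were lower in C6 than in C11 in general.

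C6 was then placed on the way from an Int cluster to C3. Over 5683 genes that differed between C5 and C3 past 1.5-fold in one direction in every library, the median position of C6 was 0.46, 0.40 and 0.37 in the 3 libraries, where 0 is C5 and 1 is C3 (mean 0.41 ± 0.045). Of these genes 43.0% had C6 between the other 2 in all 3 libraries. Measured from C11, over 4811 genes, the position was 0.27 ± 0.045 with 60.9% between, and from C9, over 5995 genes, 0.48 ± 0.03.

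The 2 directions differed. From C11, genes that were lower in C3 had a median position of 0.29 ± 0.04, and genes that were higher in C3 had 0.09 ± 0.08, at 0.14, 0.13 and -0.01 in replicates 1, 2 and 3. In each library C6 thus lay farther toward C3 for the 4314 genes that were lower there than for the 497 that were higher. From C9 the same holds, at 0.50 ± 0.02 and 0.33 ± 0.06. From C5 the order was the other way round, at 0.39 ± 0.04 and 0.45 ± 0.07. By its definition, the position moves toward C3 where C6 is below the Int cluster for a gene lower in C3. It moves away from C3 where C6 is below the Int cluster for a gene higher in C3. As scaled here the median difference of all genes was -0.13 from C11 and -0.17 from C9. In the highest quartile of mean score it was 0.06 and 0.15. The part of these differences in the order of the 2 directions was not tested. Whether the order of the 2 directions holds under other scalings was not tested. The clusters were defined on these genes, so these are descriptions.

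**Figure D5:**
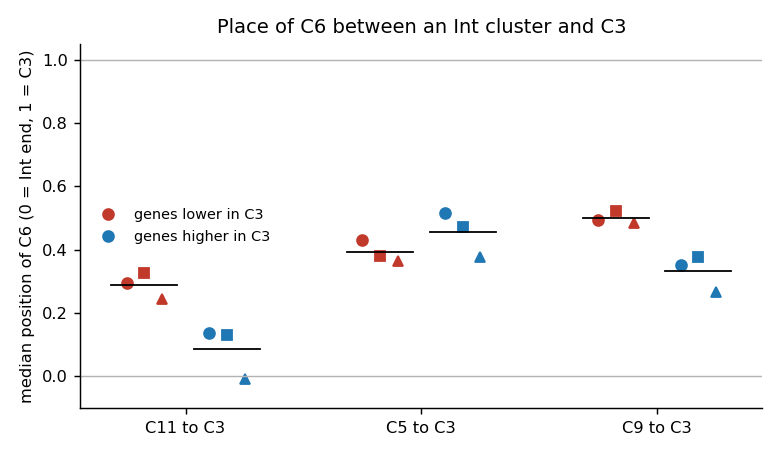
Median position of C6 between an Int cluster (0) and C3 (1) over the genes that differ between them, for genes lower and genes higher in C3, with a symbol for each WT library and a line at the mean. From C11 the genes lower in C3 sit at 0.29 and those higher in C3 at 0.09, and from C5 the 2 sets lie at 0.39 and 0.45.

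C6 held nuclei of both classes. Its 195 Late nuclei were set against its Int nuclei within each library, with 97, 62 and 36 Late nuclei. The authors gave the classes to these same nuclei, so differences between them are descriptions and cannot test whether C6 was uniform. Of 16473 genes, 432 (2.62%) were counted as higher and 2400 (14.6%) as lower in the Late nuclei, and r between libraries was 0.05 to 0.25, so single genes are uncertain at this depth. Xpo7 had 159, 164 and 184.5 in the Late nuclei of C6 and 80.2, 72.5 and 65.8 in the Int nuclei (1.21 ± 0.25), with no overlap. The list median of the 20 terminal maturation genes was 0.31, and that of 15 early genes -0.75, beside -0.13 for all genes. Within the 3 libraries the early list had medians of -0.57, -0.65 and -0.38. Lists of other cell types moved too, at -0.69 for stromal and endothelial, -0.49 for lymphoid and -0.45 for megakaryocyte markers. Myeloid markers had 0.14 and mast and basophil markers 0.32. The part of low scores in the early genes was not tested.

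The Int nuclei of C6 alone were also above the C5 levels of Xpo7 in each library, which were 49.0, 53.6 and 54.1. Kit went the other way, with 8.56, 6.85 and 6.99 in the Late nuclei and 13.2, 12.7 and 13.7 in the Int nuclei. Klf1 did not separate the 2 classes (-0.06 ± 0.13).

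Shallow and deep nuclei of C6 had similar scores. Nuclei at or below the median of fragments in each library, with medians of 2865, 3123 and 2720 fragments, were set against the rest, with 6891, 8240 and 7661. Of 17638 genes, 225 (1.28%) were higher and 239 (1.36%) lower in the shallow nuclei, and r between libraries was 0.02 to 0.03. The median difference was 0.02 for the terminal maturation genes and 0.04 for the early genes. Klf1 had 290.1, 245 and 247 in the shallow nuclei and 297, 254 and 252 in the deep ones, and Myc 41.8, 38.5 and 20.1 against 30.7, 27.3 and 19.2. Median TSS enrichment was lower in the shallow than in the deep nuclei in every library, at 33.2, 34.8 and 37.2 against 34.7, 36.9 and 39.4, and the shallow nuclei of C6 still lay above the medians of C11.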

How the data were processed

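Per the labels, nuclei of sorted Ter119+ erythroblasts were prepared as 10x multiome libraries; 3 WT and 3 KO ATAC libraries are used of 45 samples. The submitters' processing notes name mm10 and Cell Ranger. The deposited signal is a gene score for 24333 genes and 34073 nuclei, which the authors had scaled to 10000 per nucleus; how fragments were weighted is not given in the sources used here. The deposited table of nuclei gave fragments, quality measures, cluster and class; it held each nucleus in 2 identical copies, of which 1 was used.

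Scores were averaged per library and cluster, scaled to 1000000, and compared as log2(score + 1) with Python 3.11.15, numpy 2.4.6, pandas 2.3.3, scipy 1.17.1 and matplotlib 3.10.9. Genes needed a mean score of 5. A library held 46782673 to 66286151 fragments. The clusters were made on these nuclei, so no statistical test was run. The script that counts genes was checked on simulated scores. A fit of KO against WT within C6 was planned with limma for KO libraries of at least 20 C6 nuclei and was not run, since none had them. The members, the 17 gene lists and the rules were chosen with earlier results of these data known; an 18th list, of histone genes, was added after the data were seen. Named genes were Klf1, Gata1, Tfrc and Stag2, and the 5 highest and 5 lowest counted genes per comparison. The latter needed a mean score of at least 20, and predicted Gm, Rik and Mir names were left out. With the same restrictions, the 5 farthest above and the 5 farthest below all 4 clusters were named. Per list, up to 4 members farthest from C5 were also named. Other list members counted are named as such, after their values were seen. Promoters are from RefSeq, matched by symbol or by a synonym of 1 gene alone, for 80 of 106 named and 54 of 61 histone genes. Alternatives covered the pseudocount, filter, threshold, weights, fragment matching, scaling, doublets, class and each replicate left out.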

Additional observations from a re-analysis of the deposited data

How the results depend on the processing

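No result was tested, so the alternatives show how counts and differences move. The count of genes against C5 was 2155, and 1148 with a pseudocount of 5, 657 with a filter at 20, 423 at 2-fold and 2661 to 3662 with a replicate left out. Against C9 it was 3527, and 2091, 1299 and 752 under the same 3 settings, 1463 with quantile normalization and 3399 to 4106 with a replicate left out. Against C11 it was 878, and 61, 19 and 16, then 1915 with no filter, 2041 with fragments matched, 91 with quantile normalization, 218 with median centring and 837 to 1801 with a replicate left out. Against C3 it was 2938, and 852 with a filter at 20, 1159 at 2-fold, 7144 with no filter and 2992 to 3179 with a replicate left out. Leaving out a replicate also makes one sign in every library easier to reach. Of genes counted both ways, none had the opposite direction except 2 against C9 and 3 against C11 with fragments matched.

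The position of C6 was 0.410 from C5, and 0.438 to 0.493 from C5 with a replicate left out, over genes chosen again on 2 libraries. It was 0.268 from C11 and 0.478 from C9, both chosen after seeing the data. The share of C6 was 14.2%, and 9.75% to 17.0% with a replicate left out. Among the differences of named genes, 4197 values moved by less than the SD over libraries, 638 by more, and 2 that had been counted changed sign: Fam155a and Csmd1 against C11 with fragments matched, at 0.20 and 0.19, where the cause was not tested. Differences that were not counted crossed 0 in 278 of these values, Hba-a2 against C11 among them. Of the list medians 656 stayed within that SD and 206 did not, and 91 crossed 0.

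No paired analysis was possible because no test of WT against KO was made, for which they share replicate numbers. The share of C6 was not tested, since the cluster was proposed for it, and scores within C6 were not: the KO libraries held 13, 10 and 15 C6 nuclei, under the minimum of 20. The alternatives planned for that test were not run either. Clusters were compared within each library. Depth limits C5 (143 to 261 nuclei), the Late nuclei of C6 and matched C9 and C11, which rest on an effective 37.8 to 126 nuclei per library.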

Other observations

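The 38 KO nuclei in C6 had medians of 2520, 3453.5 and 2333 fragments in KO replicates 1, 2 and 3, all below the WT medians of the cluster. Their Klf1 scores were 168, 163 and 108 (scaled to 1000000), Tfrc 137, 68.0 and 117, and Gata1 5.12, 58.6 and 98.3, each from 10 to 15 nuclei. No test against the WT nuclei was made.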
